A study of Homo sapiens with 5 samples.

Results

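Binding sites of the histone demethylase LSD1 were compared between LNCaP and VCaP, 2 human lines derived from prostate cancer. The sites are the whole peak list of each line on chromosomes 1 to 22 and X, which gave 11654 peaks in LNCaP and 9814 in VCaP. Together they make 21468 of the 25987 peaks deposited in the 3 peak lists of the series. No peak was chosen by its values.

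The series examined LSD1 in androgen signalling and holds 5 samples, 1 for each group. The pair of LSD1 samples came from untransfected cells at passage 14-17 and was made with the same antibody and the same lot (Abcam, ab17721). Each line was grown in its own basal medium before both spent 3 days without phenol red in 10% charcoal-stripped serum, which is poor in steroids, ahead of a hormone stimulus. The labels do not name the hormone, and the letter D in the sample titles is not explained. The other samples are all LNCaP: a peak list for histone H3 phosphorylated at threonine 6 (H3T6ph), used here beside the LSD1 lists, and RNA libraries after control siRNA or LSD1 siRNA, of which only the control served here, as an expression reference. With 1 sample for each line there is no spread between replicates, and nothing below carries a test. A difference between the lists is a difference between 2 samples. Intervals are 95% Wilson or Poisson intervals and cover counting error only. Neither the read depth nor the control track is given in the sources used here.

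LSD1, encoded by KDM1A, removes methyl groups from lysine 4 of histone H3, a mark found at active promoters and enhancers. It works inside larger complexes, chiefly with the corepressor CoREST and the deacetylases HDAC1 and HDAC2, and also inside the NuRD remodelling complex. In prostate cells it has been studied both as a repressor and as a partner of the androgen receptor. LNCaP was derived from a lymph node metastasis and VCaP from a vertebral metastasis, and both respond to androgen. VCaP is known for the TMPRSS2-ERG gene fusion. Each line stems from 1 tumour. In the LNCaP control RNA, the prostate marker KLK3 stood at 2474 FPKM (fragment counts scaled for gene length and library depth). The basal keratins KRT5 and KRT14 stood at 0.0577 and 0.507 FPKM. No VCaP RNA was analysed here, so that line's markers were not checked.

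The sequences below show what lies at strong gene-end sites of each kind: found in both lists, in LNCaP alone and in VCaP alone. For each kind they are the 250 bases before the annotated start of the 2 genes that ranked highest. Candidates were protein-coding genes alone in their interval, with 1 RefSeq promoter and a peak within 1 kb of their start. Shared sites were ranked by the mean of their score ranks in both lists, so the highest score of 1 list need not come first. They come from the RefSeq promoter table of GRCh38.p14 and are written 5′ to 3′ on the strand of the gene. Peak positions are hg19 and were not converted. Capitals mark exact matches, on either strand, to the letters CCGGAAGT (ETS factors), AAGATGGCG (YY1), TGACGTCA (the cyclic AMP response element, CRE), GGGCGG (SP and KLF factors) or CACGTG (E-box). The NRF1 palindrome was searched as well and is in none of the printed bases. None of these 6 motifs overlaps another there.

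ZNF335 encodes a zinc finger regulator of transcription. Its start carried an LNCaP peak at chr20:44599809-44600884 (score 187) and a VCaP peak at chr20:44599941-44600781 (score 162). The promoter bases are chr20:45972204-45972453, minus strand, with 1 CRE match.
ZNF335: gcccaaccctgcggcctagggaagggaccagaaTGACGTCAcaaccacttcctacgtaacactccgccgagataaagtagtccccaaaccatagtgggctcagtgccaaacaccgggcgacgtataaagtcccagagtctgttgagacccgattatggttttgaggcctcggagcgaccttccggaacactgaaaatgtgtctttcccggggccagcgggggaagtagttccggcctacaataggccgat

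PSMD9 encodes a proteasome assembly chaperone. It carried an LNCaP peak at chr12:122325810-122326901 (score 173) and a VCaP peak at chr12:122325741-122327145 (score 181). The promoter bases are chr12:121888540-121888789, plus strand, with 1 E-box and 3 SP and KLF matches.
PSMD9: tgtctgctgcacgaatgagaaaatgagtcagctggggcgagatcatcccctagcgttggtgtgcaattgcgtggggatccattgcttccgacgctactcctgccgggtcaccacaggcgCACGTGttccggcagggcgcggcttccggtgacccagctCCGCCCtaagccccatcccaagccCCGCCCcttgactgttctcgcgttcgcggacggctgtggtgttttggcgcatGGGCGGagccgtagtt

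CAVIN2, a coat protein of caveolae, and CPN2, a subunit of the plasma enzyme carboxypeptidase N, had the top such sites found in LNCaP alone. The CAVIN2 peak lay at chr2:192711527-192712543 (score 289) and the CPN2 peak at chr3:194070833-194071747 (score 232). In the LNCaP control RNA CAVIN2 was at 0.0497 FPKM and CPN2 was listed at 0. The promoter bases are chr2:191847089-191847338 and chr3:194351329-194351578, both on the minus strand. The CPN2 bases hold 1 E-box match and the CAVIN2 bases none of the 6 motifs.
CAVIN2: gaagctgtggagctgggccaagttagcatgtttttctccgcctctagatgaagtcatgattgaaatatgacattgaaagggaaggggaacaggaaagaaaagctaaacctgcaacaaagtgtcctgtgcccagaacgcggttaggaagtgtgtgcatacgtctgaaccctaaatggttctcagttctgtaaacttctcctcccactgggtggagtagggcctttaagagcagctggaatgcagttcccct
CPN2: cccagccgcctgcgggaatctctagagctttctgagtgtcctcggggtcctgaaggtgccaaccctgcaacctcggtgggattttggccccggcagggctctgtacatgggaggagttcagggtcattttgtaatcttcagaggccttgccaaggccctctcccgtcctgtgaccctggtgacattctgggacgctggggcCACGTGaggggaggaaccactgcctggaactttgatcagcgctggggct

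H4C5 and H4C2, both genes for histone H4, had the top such sites found in VCaP alone. The H4C5 peak lay at chr6:26204181-26206339 (score 196) and the H4C2 peak at chr6:26026152-26028059 (score 194). The promoter bases are chr6:26204360-26204609, plus strand, with 1 CRE match, and chr6:26027284-26027533, minus strand, with 1 SP and KLF match.
H4C5: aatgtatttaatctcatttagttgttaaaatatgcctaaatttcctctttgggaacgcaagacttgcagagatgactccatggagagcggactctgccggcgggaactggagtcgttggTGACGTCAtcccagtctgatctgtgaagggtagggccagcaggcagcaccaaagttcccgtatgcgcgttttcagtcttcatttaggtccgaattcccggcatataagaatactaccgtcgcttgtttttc
H4C2: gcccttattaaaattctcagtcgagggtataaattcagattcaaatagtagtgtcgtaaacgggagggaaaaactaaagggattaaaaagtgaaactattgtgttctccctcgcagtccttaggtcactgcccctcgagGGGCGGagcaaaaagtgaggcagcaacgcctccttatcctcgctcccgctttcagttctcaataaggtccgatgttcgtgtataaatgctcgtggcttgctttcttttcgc

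VCaP peaks were fewer and wider than LNCaP peaks. The median width was 730 bases in LNCaP and 850 bases in VCaP. Peaks of 2 kb or wider numbered 18 (0.154%) in LNCaP and 491 (5.0%) in VCaP. The lists covered 9.03 Mb and 9.81 Mb of sequence. Every peak of both lists has a score of at least 50 as the authors gave it, and ranks by score were used within a list only.

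VCaP LSD1 lay at gene ends more often than LNCaP LSD1. Each peak was placed by the gene intervals of the authors' expression table: within 1 kb of either end of an interval (a locus end), else inside an interval, else intergenic. The table holds 19527 merged intervals and no strand. Locus ends held 9.61% of LNCaP peaks (1120 peaks, 9.09% to 10.2%) and 17.7% of VCaP peaks (1736 peaks, 16.9% to 18.5%). Peaks inside loci made 44.7% of the LNCaP list and 37.6% of the VCaP list. Intergenic peaks made 45.7% and 44.7%, so the lines differed between the ends and the bodies of genes, with nearly equal shares outside them.

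Both lists held more gene-end sites than the extent of these regions. By the peak centre, which is a fair match to a base count, locus ends took 8.31% of LNCaP peaks and 15.1% of VCaP peaks, against 2.37% of all spanned bases. Loci away from their ends took 45.5% and 39.0% of the centres against 38.6% of bases. The intergenic share was 46.2% and 45.8%, against 59.1% of bases.

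The gene-end share moved with peak strength in opposite directions. With each list cut by score into 4 equal parts, the locus-end share in LNCaP fell from the weakest to the strongest part through 11.4%, 10.3%, 9.17% and 7.58%. In VCaP it rose through 14.1%, 14.7%, 19.8% and 22.2%. The parts therefore stood closest among weak peaks and furthest apart among strong ones. Peak width also differed between the lists. Among peaks of 500 to 1000 bases the locus-end share was 9.60% in LNCaP and 13.7% in VCaP, closer together than in the whole lists. Widths were not matched within that range.

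**Figure D1:**
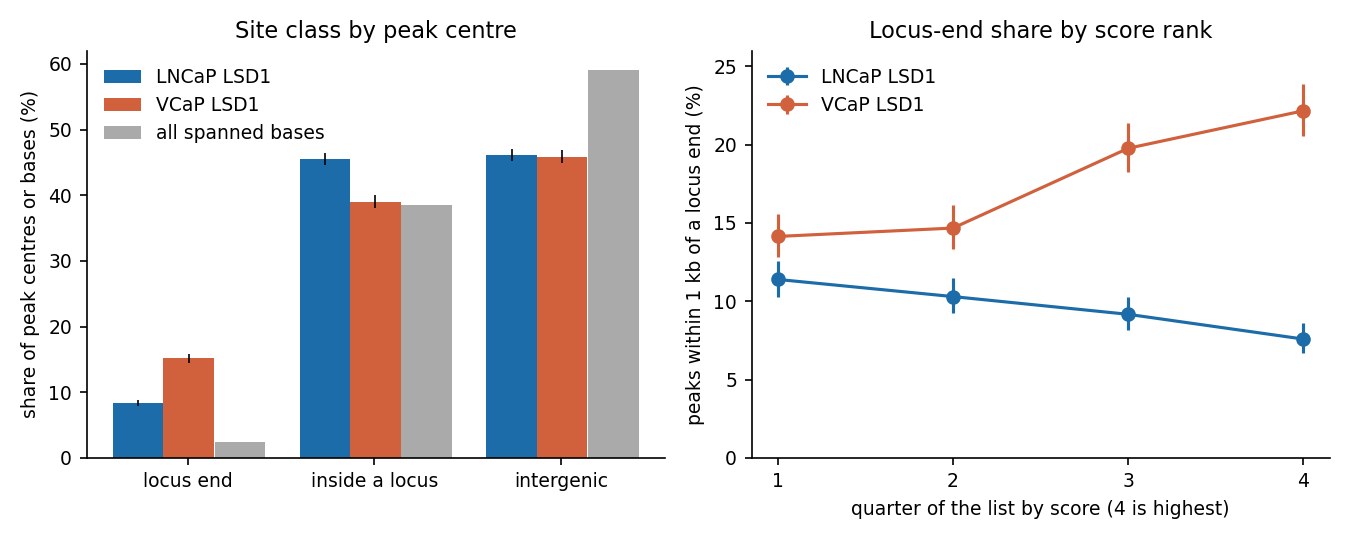
Left, share (%) of LSD1 peak centres at locus ends, inside loci and between loci in LNCaP and VCaP, beside the share of all spanned bases; right, share (%) of peaks within 1 kb of a locus end in 4 equal parts of each list ranked by score. Bars and points carry 95% Wilson intervals, for counting error only, and the strongest part reads 7.58% in LNCaP and 22.2% in VCaP.

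The higher gene-end share of VCaP was spread over the genome. It was above that of LNCaP on 22 of 23 chromosomes, the exception being chromosome 16 with 14.4% in LNCaP and 10.6% in VCaP. Chromosome 19, which has the most loci per Mb, had the highest share in both lines, 34.5% in LNCaP and 37.8% in VCaP. Chromosome 8 had the lowest share in LNCaP, 5.36% against 10.7% in VCaP. On chromosome 6, which carries the main histone gene cluster, the share was 7.58% in LNCaP and 20.5% in VCaP.

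The gene-end sites were at starts rather than at the far ends of genes. For 11646 intervals with 1 gene, the strand was taken from the RefSeq promoter table. LNCaP had a peak within 1 kb of the start of 656 genes (5.63%, 5.23% to 6.07%) and of the far end of 174 (1.49%). VCaP had one at 1088 starts (9.34%, 8.83% to 9.88%) and at 221 far ends (1.90%). Of the starts, 473 had a peak in LNCaP alone, 905 in VCaP alone, 183 in both lists and 10085 in neither.

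Peak centres were spread differently around the start. In the 250 bases before it, the lines were alike, with 17.0 LNCaP and 17.4 VCaP centres per 1000 genes. In the 250 bases after it, LNCaP fell to 8.33 and VCaP stood at 19.1. In the next 250 bases the values were 3.09 and 11.9. The LNCaP centres thus sat mostly before the start, and the VCaP centres reached into the gene on the same scale as before it.

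**Figure D2:**
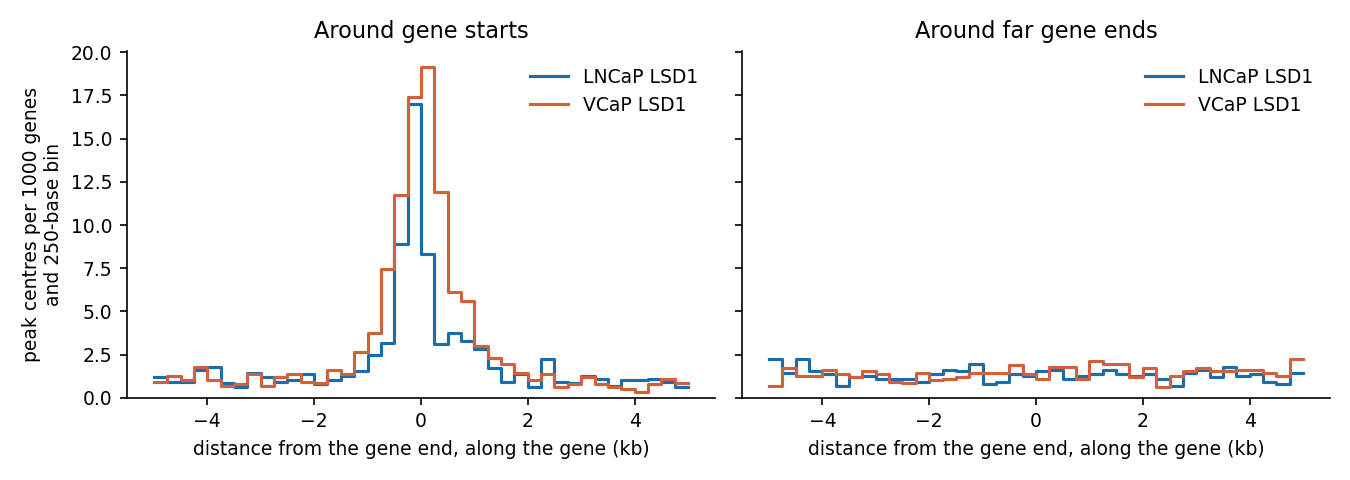
Peak centres per 1000 genes and 250-base bin, by distance (kb, positive into the gene at starts and past it at far ends) from the start (left) and the far end (right) of 11646 genes, for LNCaP and VCaP LSD1. Both lines peak at the start, with VCaP at 19.1 and LNCaP at 8.33 in the first bin after it, and neither peaks at the far end.

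The promoters at these starts were also described by their letters. Of the starts, 8697 had exactly 1 RefSeq promoter of 300 bases (250 before the start and 50 after), and all 35116 promoters of the table served as background. Motifs were counted as exact letters on both strands. A match is no evidence of binding, and a missing match says only that these letters are not in the window.

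The ETS letters CCGGAAGT, the core site of factors such as GABPA and ELF1, were more frequent at bound starts. They were in 9.38% (6.75% to 12.9%) of 352 promoters with a peak in LNCaP alone and in 12.6% (10.4% to 15.3%) of 697 with a peak in VCaP alone. They were in 10.3% of 136 promoters with a peak in both lists, 5.67% (5.17% to 6.22%) of 7512 with neither and 4.14% of all promoters. The intervals of the LNCaP and VCaP promoters overlap, so no difference in this motif between the lines was detectable. The YY1 letters AAGATGGCG were in 5.68% (3.71% to 8.61%) of LNCaP, 5.16% (3.75% to 7.07%) of VCaP and 4.41% (2.04% to 9.29%) of shared promoters. They were in 2.78% (2.43% to 3.18%) with neither and 1.75% of all. The shared interval includes the share of promoters with neither.

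The SP and KLF letters GGGCGG were in 67% of LNCaP promoters (62.0% to 71.7%), 64.0% of VCaP (60.4% to 67.5%) and 65.4% of shared ones (57.1% to 72.9%), against 59.5% with neither (58.4% to 60.6%). Only the LNCaP interval lay apart from that of promoters with neither. The TATA letters TATAAA were in 5.40% (3.48% to 8.28%), 7.46% (5.73% to 9.65%) and 8.09% (4.58% to 13.9%), against 11.1% with neither (10.4% to 11.9%). Here the LNCaP and VCaP intervals lay below that of promoters with neither, and the shared interval included it. Median GC content was 65.2% at LNCaP promoters, 63.3% at VCaP promoters, 61.8% at shared ones and 62.7% at promoters with neither. In the same order, the median number of CG pairs was 27, 25, 24 and 22. Median expression in the LNCaP control RNA was 11.5, 11.4, 11.9 and 2.60 FPKM. Whether the motif shares follow expression or CG pairs was not tested.

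Androgen receptor letters did not set bound starts apart. The letters AGAACA, 1 arm of the androgen response element, were in 9.09% of LNCaP, 9.76% of VCaP and 14.0% of shared promoters (9.13% to 20.8%), against 11.1% with neither and 14.8% of all. The full element, a pair of such arms facing each other, was in 0 of the 697 VCaP promoters, which allows up to 0.548%, and in 0 of the 352 LNCaP promoters, which allows up to 1.08%. It was in 1 of all 35116. The forkhead letters TGTTTAC, the site of FOXA1, were in 3.69% of LNCaP and 1.87% of VCaP promoters, with overlapping intervals, against 2.54% with neither. These windows hold promoters only, and the sequence under the intergenic peaks was not analysed here.

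Sites called in both lines were the exception and were richer in gene ends. A shared base with the other list was found for 1210 LNCaP peaks (10.4%) and 1206 VCaP peaks (12.3%). Among LNCaP peaks the overlap was 24.0% at locus ends (21.6% to 26.6%), 8.39% inside loci and 9.47% between loci. Among VCaP peaks it was 15.7%, 11.9% and 11.3%. Locus ends made 22.2% and 22.6% of the overlapping peaks of each list, above the share in the peaks found in 1 line alone, 8.15% in LNCaP and 17.0% in VCaP.

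Strong peaks were shared more often than weak ones. The overlap rose from 7.31% in the weakest of 4 equal parts of the LNCaP list to 16.6% in the strongest, and from 7.46% to 20.9% in VCaP. Peaks that did not overlap were mostly far from the other list. The median distance was 95.4 kb for 10444 LNCaP peaks and 69.3 kb for 8608 VCaP peaks. A peak of the other list lay within 5 kb of 3.84% and 4.87% of them.

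H3T6ph peaks of LNCaP overlapped shared LSD1 sites most. They overlapped 27.5% of the LNCaP peaks shared with VCaP (25.1% to 30.1%) and 3.23% of the others. They overlapped 27.9% of the VCaP peaks shared with LNCaP and 9.24% of the others (8.64% to 9.87%). The mark was measured in LNCaP, yet the LSD1 sites found in VCaP alone met it more often than those found in LNCaP alone. Among shared LNCaP peaks the overlap was 10.4% at locus ends, 27.5% inside loci and 36.7% between loci.

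Among shared peaks, distance to genes moved with this overlap. Of the 205 shared LNCaP peaks more than 50 kb from any locus, 40.5% met H3T6ph (34.0% to 47.3%). Of the 1005 nearer ones, 24.9% did (22.3% to 27.6%). Peaks outside the overlap differed little with distance, at 3.38% far and 3.18% near in LNCaP and 9.80% and 9.09% in VCaP. The strongest shared sites of this kind included a peak at chr6:58776073-58779459 in LNCaP (score 1347), 488 kb from the nearest locus, and its VCaP counterpart at chr6:58773286-58780166 (score 1037). Both overlapped H3T6ph. The highest-scoring shared site inside a locus was at HFM1, a meiotic helicase, at chr1:91852632-91853299 in LNCaP (score 895) and chr1:91852634-91853291 in VCaP (score 2977), also with H3T6ph. What these sites share in mappability or repeats was not tested.

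The lists were distributed differently along the genome. Each chromosome's share of the VCaP list was divided by its share of the LNCaP list. The ratio was highest on chromosome 19 at 2.29 (1.98 to 2.65), with 278 LNCaP and 537 VCaP peaks, then on chromosome 21 at 2.02 (1.66 to 2.47) and chromosome 12 at 1.63 (1.46 to 1.82). It was lowest on chromosome 16 at 0.467 (0.385 to 0.567), with 361 and 142 peaks, then on chromosome 10 at 0.596 and chromosome 2 at 0.722. DNA copy number differs between cancer lines and was not measured in these samples. Its part in these ratios was not tested.

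**Figure D3:**
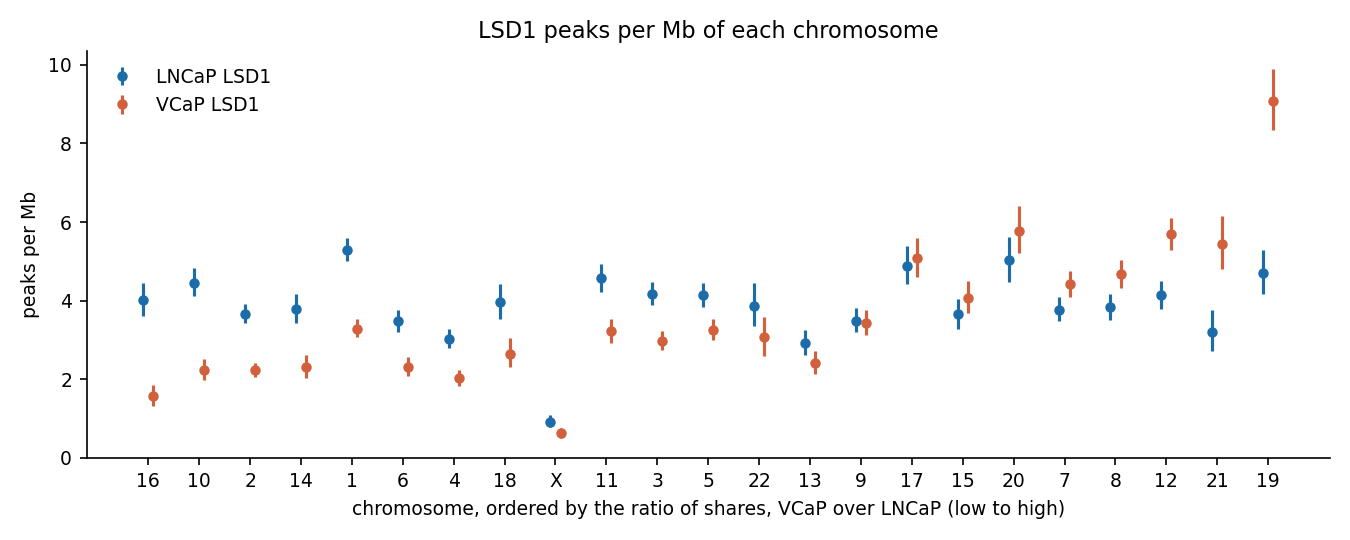
Peaks per Mb on each chromosome for LNCaP and VCaP LSD1, with 95% Poisson intervals for counting error, chromosomes ordered by the ratio of the VCaP share to the LNCaP share. VCaP reaches 9.09 peaks per Mb on chromosome 19 against 4.70 in LNCaP, and 1.58 against 4.0 on chromosome 16.

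Several chromosomes switched between the lines in long blocks. On chromosome 8 the first 30 Mb held 134 LNCaP and 38 VCaP peaks, and the rest held 426 and 646. On chromosome 6 the first 20 Mb held 76 LNCaP and 14 VCaP peaks, the next 30 Mb held 126 and 238, and the rest 392 and 144. On chromosome 16 LNCaP led before 30 Mb (118 against 40) and past 50 Mb (209 against 52), while VCaP led between them (34 against 50). These blocks were chosen after the counts were seen.

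**Figure D4:**
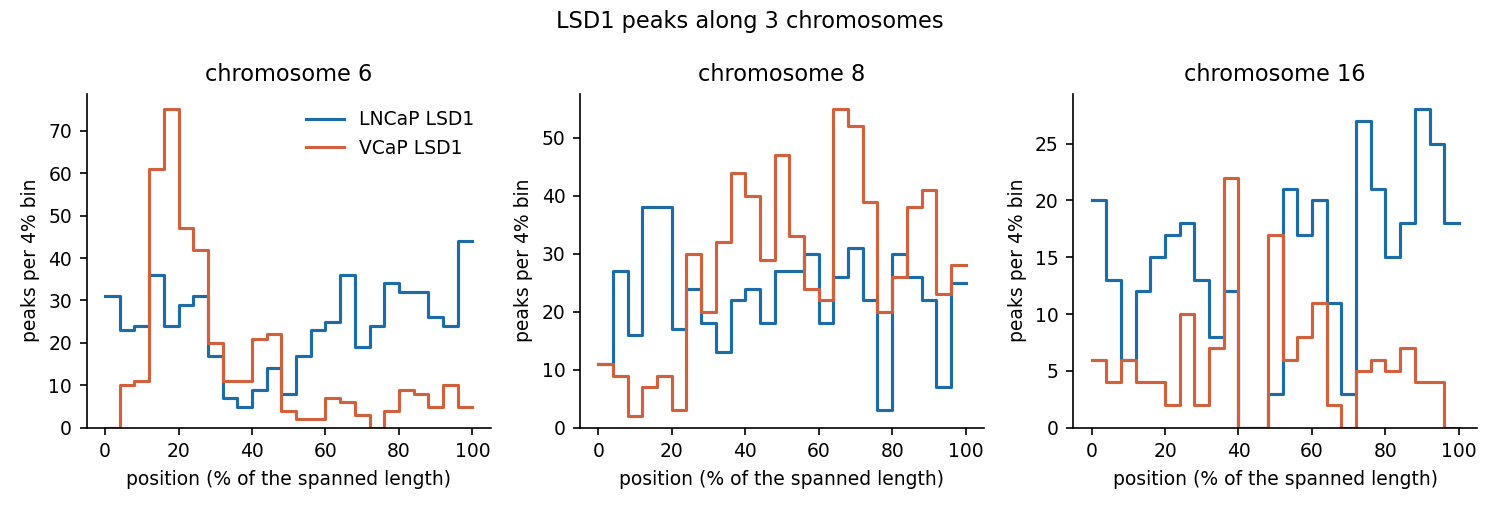
LSD1 peaks in bins of 4% of the spanned length (x axis, %) of chromosomes 6, 8 and 16 for LNCaP and VCaP; the y axis counts peaks per bin. VCaP is low in the first part of chromosome 8 and over most of chromosomes 6 and 16.

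Long stretches of 1 list were empty while the other was filled. VCaP had no peak in the first 10970508 bases of chromosome 6, where LNCaP had 43, and none at chr6:119558869-131676002, where LNCaP again had 43. LNCaP had no peak at chr19:46246777-47633543, a stretch of 34 loci with 22 VCaP peaks, and none at chr8:136635716-141663560 with 20. In all, 20 stretches without a VCaP peak held 15 or more LNCaP peaks, and 9 without an LNCaP peak held 15 or more VCaP peaks. Over 10 Mb windows with 20 or more peaks, the ratio of shares was 2 or higher in 33 of 286 and 0.5 or lower in 52.

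Counts of the lists over windows followed each other loosely. Over 3046 windows of 1 Mb, which share mappability and gene density, the LNCaP and VCaP counts had a Pearson r of 0.40 and a Spearman rho of 0.49. VCaP LSD1 and LNCaP H3T6ph had an r of 0.57, and LNCaP LSD1 and H3T6ph an r of 0.39. At 10 Mb the values were 0.53, 0.79 and 0.61 in that order. The H3T6ph list of LNCaP was thus distributed more like the VCaP LSD1 list than like the LSD1 list of its own line, as a description over windows.

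VCaP peaks were grouped somewhat more than LNCaP peaks. With peaks chained at gaps of 12500 bases or less, groups of 3 or more held 215 LNCaP peaks (1.84%, 1.62% to 2.11%) in 67 groups and 307 VCaP peaks (3.13%, 2.80% to 3.49%) in 86 groups. The median gap to the next peak was similar, 130 kb in LNCaP and 126 kb in VCaP. Most peaks of both lists were thus isolated.

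The largest groups were far from genes. The VCaP group of 14 peaks at chr16:46385802-46444567 lay 58.7 kb from the nearest locus, and 3 LNCaP and 8 H3T6ph peaks fell within it. At chr2:92267371-92322593 VCaP had 10 peaks, and LNCaP had a group of 8 in the same stretch, with 7 H3T6ph peaks. LNCaP had 7 peaks at chr10:42383123-42418477, 409 kb from a locus. Groups more than 50 kb from any locus numbered 12 in LNCaP (47 peaks) and 27 in VCaP (119 peaks). What these groups share in mappability or repeats was not tested.

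Other groups lay over genes. VCaP had 4 peaks over CHKA, the choline kinase gene, at chr11:67848141-67875729. It had 5 at chr6:26183876-26217855, all at locus ends of histone genes from H2BC6 to H2AC8, and 4 more over histone genes at chr6:27777462-27808032. LNCaP had 4 in IGF1R, a growth factor receptor gene, at chr15:99303198-99332572, and 4 at chr3:14461133-14481692 over GRIP2 and the taurine transporter gene SLC6A6. No peak of the other line fell in the histone, IGF1R or GRIP2 groups.

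Genes near the lists were counted within 20 kb of each gene's interval in the expression table, over 22554 genes. That interval can also span neighbouring genes, so a peak near it need not be near the gene itself. PART1, for example, has the interval of PDE4D. LNCaP had a peak near 37.8% of genes and VCaP near 36.8%. Both lists were near 19.1%, LNCaP alone near 18.7%, VCaP alone near 17.7% and neither near 44.5%. A peak within 1 kb of the interval's end was found for 6.56% of genes in LNCaP and 10.2% in VCaP. Neighbouring genes share peaks, and long intervals are near more of them, so members of a family are not independent of each other. The Wilson intervals on shares of genes take each gene as independent, so they are too narrow where genes share peaks.

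Histone genes were the family that differed most. VCaP had a peak near 60 of 79 (75.9%, 65.5% to 84.0%) and LNCaP near 15 (19%, 11.9% to 29%), against 36.8% and 37.8% of all genes. All 15 of the LNCaP genes were also near a VCaP peak, 45 were near VCaP alone and none near LNCaP alone. These counts rest on 30 distinct VCaP peaks and 6 LNCaP peaks. A locus end was bound for 42 of the genes in VCaP and 6 in LNCaP, against 10.2% and 6.56% of all genes. The median interval of the histone genes is 0.472 kb long.

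Most of these genes stand together on chromosome 6. Between 26 and 29 Mb there were 65 VCaP peaks and 20 LNCaP peaks, with 35 and 5 at locus ends. The VCaP peaks had a median width of 1289 bases, against 709 for LNCaP. VCaP was near 53 of the 55 chromosome 6 histone genes and LNCaP near 12. The block from 20 to 50 Mb of the chromosome, which holds this cluster, leaned to VCaP as a whole. Of the 24 histone genes elsewhere, VCaP was near 7 (29.2%) and LNCaP near 3, neither above the share of all genes. Histone genes are short near-identical copies, and how the authors treated reads that fit several copies is not given in the sources used here.

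Single histone genes show the pattern. H3C4, a histone H3 gene, had 5 VCaP peaks within 20 kb and no LNCaP peak. H2BC6, for histone H2B, had 4 and 0, and H4C5 had 4 and 0, with the promoter printed above. H4C16, a histone H4 gene on chromosome 12, had 2 and 1. The replication-independent gene H3-3A had 1 and 0. H1-2, a linker histone gene at 133 FPKM in the LNCaP control RNA, had 1 and 0.

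Keratin genes, which encode intermediate filaments of epithelia, were near LNCaP less often than genes at large and near VCaP about as often. VCaP was near 21 of 53 (39.6%, 27.6% to 53.1%) and LNCaP near 7 (13.2%, 6.55% to 24.8%). The shares of all genes were 36.8% and 37.8%. The median keratin interval is 7.31 kb long, and interval length was not held level in these shares. The 16 genes near VCaP alone included KRT8, KRT18 and KRT19 and also KRT6B, KRT6C, KRT13, KRT15, KRT16 and KRT17. The counts rest on 11 VCaP and 5 LNCaP peaks in clusters on chromosomes 12 and 17, so the intervals are too narrow.

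HOX genes, the regulators of body axis patterning, were near VCaP less often than genes at large (36.8%) and near LNCaP about as often (37.8%). LNCaP was near 13 of 39 (33.3%, 20.6% to 49.0%) through 5 peaks and VCaP near 4 (10.3%, 4.06% to 23.6%) through 1 peak. The intervals of the lines overlap, and with so few peaks they are too narrow to set either share apart from genes at large. The genes near LNCaP alone included HOXA9, HOXA10, HOXA11, HOXB13 and HOXD13, and those near VCaP alone were HOXC8 and HOXC9. HOXC10 and HOXC11 were near both lists. The median HOX interval is 3.985 kb long, and interval length was not held level here either.

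Protocadherin genes, for cell adhesion proteins, had no gene near both lists, against 19.1% of all genes. LNCaP was near 29 of 65 (44.6%, 33.2% to 56.7%) through 13 peaks, among them the gamma cluster from PCDHGA1 to PCDHGC5. VCaP was near 16 (24.6%, 15.8% to 36.3%) through 2 peaks, at the alpha cluster and PCDHB1. The LNCaP interval includes the 37.8% of all genes, and the VCaP interval ends just under the 36.8% of all genes. The 65 genes fall in 30 gene intervals, so a single peak can count for many of them and the Wilson intervals are too narrow.

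Zinc finger (ZNF) genes, most of which encode DNA-binding repressors, were near LNCaP less often than genes at large (37.8%) and near VCaP about as often (36.8%). VCaP was near 186 of 488 (38.1%, 33.9% to 42.5%) and LNCaP near 136 (27.9%, 24.1% to 32.0%). A locus end was bound for 83 of the 488 in VCaP and 46 in LNCaP. Both counts are above the end shares of all genes, 10.2% and 6.56%. The median interval of the ZNF genes is 21.6 kb long. Many of these genes are on chromosome 19, where VCaP had 537 peaks and LNCaP 278.

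**Figure D5:**
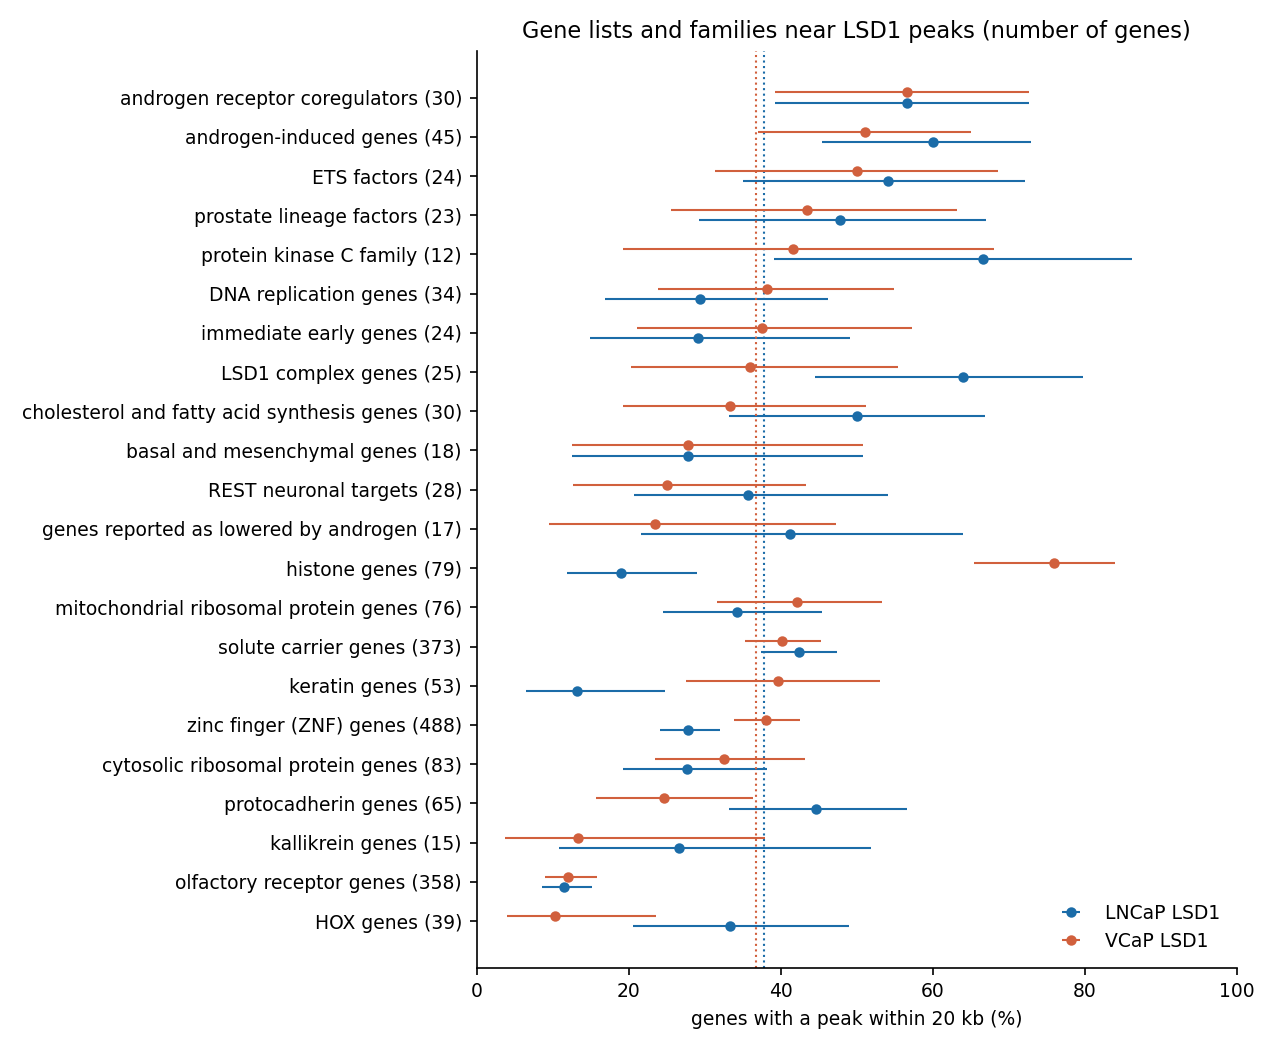
Share (%) of the genes of each list or family with an LSD1 peak within 20 kb, LNCaP and VCaP, with 95% Wilson intervals and the number of genes in brackets; dotted lines give all genes, 37.8% for LNCaP and 36.8% for VCaP. Intervals of the lines are apart for histone and ZNF genes and for keratins, and they overlap for the other groups. The intervals take each gene as independent and are too narrow where genes share peaks.

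Of the genes of LSD1's own complexes, LNCaP was near 16 of 25 (64.0%, 44.5% to 79.8%) and VCaP near 9 (36.0%, 20.2% to 55.5%), against 37.8% and 36.8% of all genes. The intervals of the lines overlap, and the VCaP share is that of genes at large. Near both were RCOR1, which encodes CoREST, HDAC1, CTBP2 and the NuRD remodellers CHD3 and CHD4. At HDAC1 both lists had a peak in the gene body, at chr1:32781824-32782514 in LNCaP (score 74.0) and chr1:32781867-32782738 in VCaP (score 132). KDM1A itself had 1 VCaP peak, at chr1:23345337-23346062 over the lower end of its interval, and no LNCaP peak within 260 kb.

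Of genes induced by androgen, LNCaP was near 27 of 45 (60%, 45.5% to 73%) and VCaP near 23 (51.1%, 37% to 65%), with 16 near both. All genes were at 37.8% and 36.8%, and genes at 1 FPKM or more at 41.7% and 41.8%. The VCaP interval includes the last of these. The median interval of the listed genes is 52.0 kb long. PART1 counts among the 16 near both through an interval of 1579 kb that it shares with PDE4D. TPD52, a vesicle trafficking gene, had 7 VCaP peaks and no LNCaP peak, from chr8:80941759-80943066 to chr8:81059302-81060324. It lies in the block of chromosome 8 where VCaP led. IGF1R had 7 LNCaP and 2 VCaP peaks, and ABCC4, a drug and prostaglandin exporter gene, had 6 and 1.

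The classical androgen targets differed one by one. KLK3, which encodes prostate-specific antigen, had the same upstream site in both lines, at chr19:51353751-51354592 in LNCaP (score 58.5) and chr19:51353180-51355973 in VCaP (score 81.6). Both met H3T6ph. LNCaP had a second site between KLK3 and KLK2 at chr19:51372494-51373518 (score 126), with no VCaP peak there. KLK2, a related kallikrein, had 2 LNCaP peaks and its nearest VCaP peak was 20.7 kb away. FKBP5, a cochaperone of steroid receptors, had 1 LNCaP and 2 VCaP peaks, all in the gene body and none overlapping.

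TMPRSS2, a serine protease, had no peak of either list within 20 kb, with the nearest LNCaP and VCaP peaks at 30.4 and 27.6 kb. FOXA1, a pioneer factor for the androgen receptor, had its nearest peaks at 22.3 kb in LNCaP and 279 kb in VCaP. HOXB13, a prostate lineage factor, had 1 LNCaP peak at chr17:46822693-46823478, and the nearest VCaP peak was 57.5 kb away.

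ETS factor genes were near both lists to a like extent, 13 of 24 in LNCaP (54.2%, 35.1% to 72.1%) and 12 in VCaP (50%, 31.4% to 68.6%), with 8 near both. Both intervals include the shares of all genes, 37.8% and 36.8%. ERG, the gene fused to TMPRSS2 in VCaP, had 2 VCaP peaks and no LNCaP peak. The stronger lay inside the gene at chr21:39940231-39942591 (score 113), above 95.1% of the VCaP list. ERG was at 0.0135 FPKM in the LNCaP control RNA. ETS1 was the reverse, with 4 LNCaP peaks and its nearest VCaP peak at 409 kb. ETV1 had 1 peak in each line at different places, inside the gene in LNCaP and at its upper end in VCaP, at chr7:14028981-14030895 (score 94.1).

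Among prostate lineage factors LNCaP was near 11 of 23 (47.8%) and VCaP near 10 (43.5%), with 5 near both. Both intervals include the shares of all genes. GRHL2, an epithelial transcription factor, had 5 VCaP peaks and no LNCaP peak, with the strongest at chr8:102532418-102533628 (score 132). NFIA, a partner of the forkhead factors, had 7 LNCaP and 2 VCaP peaks. NR3C1, the glucocorticoid receptor gene, had 3 and 0. SOX4 and SOX9 had 2 VCaP peaks each and no LNCaP peak.

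Coregulators of the androgen receptor were near each list in 17 of 30 genes (56.7%, 39.2% to 72.6%), with 10 near both, against 37.8%, 36.8% and 19.1% of all genes. Their median interval is 95.8 kb long. KAT2B, a histone acetyltransferase gene, had 4 VCaP peaks and no LNCaP peak. NCOA2, a steroid receptor coactivator gene, had 4 VCaP peaks and 1 LNCaP peak, and the LNCaP peak overlapped one of the VCaP peaks. KDM4B, a demethylase gene, had 3 in each line, and 2 of them overlapped.

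Protein kinase C and related kinase genes are of interest because these kinases phosphorylate H3T6. LNCaP was near 8 of 12 (66.7%, 39.1% to 86.2%) and VCaP near 5 (41.7%, 19.3% to 68.0%), and the intervals overlap widely. The median interval of these genes is 153 kb, and the shares of all genes are 37.8% and 36.8%. PRKCE had the largest difference, with 8 LNCaP peaks and no VCaP peak within 42.7 kb. The H3T6ph list had 4 peaks near it. PRKCH had 3 and 2, and PRKCZ 2 in each.

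Genes of cholesterol and fatty acid synthesis were near LNCaP in 15 of 30 (50%, 33.2% to 66.8%) and near VCaP in 10 (33.3%, 19.2% to 51.2%), with 4 near both. Both intervals include the shares of all genes. SREBF2, the master regulator of sterol synthesis, had 1 LNCaP peak of high rank inside the gene at chr22:42298869-42299651 (score 177, above 98.6% of the list) and no VCaP peak within 20 kb. ACLY, the ATP citrate lyase gene, and FDFT1, the squalene synthase gene, had 2 LNCaP peaks each and no VCaP peak. ACACA, the acetyl-CoA carboxylase gene, had 3 LNCaP and 6 VCaP peaks.

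Long intervals carried the most peaks. PDE4D, a phosphodiesterase gene in an interval of 1579 kb, had the most in both lists, 16 in LNCaP and 18 in VCaP. DLG2, a synaptic scaffold gene in an interval of 2172 kb, had 14 and 1. NRG3, a neuregulin gene, PRUNE2 and TENM2, a teneurin gene, each had 7 LNCaP peaks and no VCaP peak. MYO16, an unconventional myosin gene, had 3 and 10, and the interval of LGALS12 and its neighbours on chromosome 11 had 2 and 11. The interval holding ANKS1B and APAF1 had 2 and 10.

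Genes near LSD1 were expressed at higher levels than genes without it, as measured in LNCaP. The median in the control siRNA library was 0.656 FPKM for genes near neither list, 3.29 for those near LNCaP alone, 4.19 for those near VCaP alone and 4.87 for those near both. By a peak within 1 kb of the interval's end the medians were 1.37, 7.61, 8.71 and 8.73 FPKM. Genes at 1 FPKM or more made 71.6% of those with an end peak in LNCaP alone, 76.6% of those in VCaP alone and 80.9% of those in both, against 51.9% of those in neither. Genes bound at an end in VCaP alone thus had no lower median in LNCaP RNA than genes bound there in LNCaP alone. Interval length moved with the 20 kb rule, with medians of 16 kb for genes near neither list and 82 kb for those near both.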

How the data were processed

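LSD1 ChIP-seq peaks of LNCaP and VCaP, 1 sample each, were compared. Per the submitters' processing notes, the tools were Bowtie2 2.0.0, TopHat2 2.0.4, MACS2 and Cuffdiff 2.0.1, with build hg19. The authors deposited 1 peak list per sample with a score per peak, whose scale is not stated, and a Cuffdiff-style table of FPKM for each RefSeq accession, per the file headers. Library kits were ThruPLEX-FD for ChIP and TruSeq RNA v2 for RNA, per the labels' protocols. The sources used here give no read depth, control track or handling of multiply mapped reads.

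RefSeq symbols (GRCh38.p14, names only) were found for 38934 of 40253 accessions (96.7%). Their table intervals gave 22554 genes and 19527 merged loci. FPKM of a gene's accessions were summed. Chromosome Y peaks (19 in LNCaP, 40 in VCaP) were left out. Distances, overlaps and groups were computed with Python 3.11.15, pandas 2.3.3, NumPy 2.4.6 and SciPy 1.17.1 and tested on simulated data. 95% Wilson or exact Poisson intervals cover counting error only.

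The members, lists and rules were chosen with earlier results of these data known. The rule for named genes took fixed genes, among them KDM1A, ERG, ETV1, FOXA1, HOXB13, KLK2, KLK3, FKBP5 and TMPRSS2, per list the members with the highest-scoring peaks and the largest difference in peak number, the genes, groups and 1 Mb windows with most peaks or the largest difference, the 3 highest-scoring peaks of each kind, and the promoters of the 2 highest-ranked genes of each kind (mean percentile of score over the lists with a peak within 1 kb of the start; single-gene intervals with 1 RefSeq promoter; chromosomes 8 and Y left out). Named outside it, after their values were seen, were single histone, keratin and HOX genes, RCOR1, CTBP2, CHD3, CHKA, and blocks and empty stretches of chromosomes. A few of the genes taken in are left out of the text. Of the list genes, UGT2B15, UGT2B17, NOV, MBD3 and IER3 had no match and were not analysed. Alternatives covered the distance to a locus end or gene, the score threshold, equal list sizes, the overlap rule, window size, chaining distance and expressed genes.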

Additional observations from a re-analysis of the deposited data

How the results depend on the processing

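The VCaP locus-end share stayed above that of LNCaP under every alternative run. For LNCaP and VCaP it was 7.87% and 15.5% at 500 bases, 18.5% and 26.5% at 5 kb, 8.31% and 15.1% by peak centre, 8.37% and 21.0% in the upper part of each list by score, 7.86% and 14.9% at loci of 1 FPKM or more, 9.0% and 16.5% without chromosome 19, and 13.7% in VCaP for peaks of 500 to 1000 bases. The overlap with the other list was 7.37% and 8.75% with 50% of each peak shared, 11.4% and 13.5% within 1 kb, 8.96% and 10.6% in the upper part by score, and 11.0% and 10.9% with equal numbers of top peaks, where the order turned because the lists have equal size. The window correlation was 0.49 at 5 Mb. The share of peaks in groups of 3 or more was 0.146% and 0.479% chained at 5 kb, 16.4% and 20.6% at 50 kb, 1.53% and 2.62% away from locus ends, 1.24% in LNCaP with equal numbers, and 2.40% in VCaP without peaks over 50 kb from a locus (1.75% in LNCaP).

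Genes near the lists made 28% and 27% within 5 kb, 52.9% and 50.8% within 50 kb, 41.7% and 41.8% at 1 FPKM or more, 38.5% and 37.6% of protein-coding genes, 38.5% and 35.8% without chromosome 19, and 33.6% in LNCaP with equal numbers. Histone genes near VCaP were 63.3% within 5 kb and 86.1% within 50 kb, where LNCaP was at 41.8%. Without chromosome 6 they were 29.2% (7 of 24), below the 36.8% of all genes, with LNCaP near 3 of the 24. By a peak at an interval end the median FPKM was 1.37, 7.61, 8.71 and 8.73 for neither, LNCaP alone, VCaP alone and both. The other 20 recomputed values moved by less than counting error. The alternatives without chromosome 19, chromosome 6, grouped peaks or distant peaks, by width and for protein-coding genes were chosen after seeing the data. No paired analysis was possible because each line has 1 sample. No depth, control track or replicate was at hand, so a site missing from 1 list may lie below that list's threshold.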

Other observations

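In these other groups the intervals of the lines overlap. Olfactory receptor genes, silent in most tissues, had a peak within 20 kb for 41 of 358 (11.5%) in LNCaP and 43 (12%) in VCaP, well below the 37.8% and 36.8% of all genes. Their median interval is 0.951 kb long, and interval length was not held level. Solute carrier genes were at 42.4% and 40.2% of 373. Cytosolic ribosomal protein genes were at 27.7% and 32.5% of 83. Mitochondrial ribosomal protein genes were at 34.2% and 42.1% of 76. A peak at an interval end was found for 13 and 5 olfactory receptor, 27 and 25 solute carrier, 8 and 15 cytosolic ribosomal and 10 and 17 mitochondrial ribosomal genes, against 6.56% and 10.2% of all genes.

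DNA replication genes were near LNCaP in 10 of 34 (29.4%) and near VCaP in 13 (38.2%), with 4 near both. Here and in the lists that follow, the intervals of both lines include the shares of all genes, 37.8% and 36.8%. MCM7, a subunit of the replicative helicase, had 2 VCaP peaks and no LNCaP peak, and so did POLE, a replicative polymerase gene, and MCM10. MCM4 and PCNA, the sliding clamp gene, had 1 LNCaP peak each and no VCaP peak. Immediate early genes were near LNCaP in 7 of 24 and near VCaP in 9: DUSP1, a phosphatase gene, had 2 LNCaP peaks and none in VCaP, and ATF3, a stress-induced factor gene, had 1 and 3. Neuronal targets of the repressor REST, which recruits CoREST and LSD1, were near LNCaP in 10 of 28 and near VCaP in 7. BDNF, a neurotrophin gene, had 1 LNCaP peak. Genes reported as lowered by androgen were near LNCaP in 7 of 17 and near VCaP in 4, and basal and mesenchymal genes in 5 of 18 for each. Kallikrein genes were near LNCaP in 4 of 15 and near VCaP in 2.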
